A study of Mus musculus with 23 samples.

Results

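The odorant receptor RNAs pulled down after exposure to acetophenone and to TMT were compared at the 1% dose, each odor against its own controls. The data set held 14 of the 23 RNA-seq libraries of the series: 3 litters with a control and a 1% acetophenone library, and 4 litters with a control and a 1% TMT library. They were chosen by their labels, as the litters that supply a control and a 1% library of the same odor experiment. The value of interest was a difference of differences, the log2 change with 1% acetophenone minus the log2 change with 1% TMT. A positive value therefore means a higher response to acetophenone and a negative value a higher response to TMT.

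All mice were C57BL/6 at postnatal day 21, exposed for 1 h to the odor or to a control that the labels do not describe further. The acetophenone litters were numbered 3 to 5 and the TMT litters 1 to 4. The litters of the 2 experiments were numbered separately, and no control library was shared between the odors. Each library came from whole olfactory epithelium and was made from RNA bound to phosphorylated ribosomal protein S6 (pS6), and the labels do not say how many animals a library holds. Whole tissue was used, and these libraries hold pS6-bound RNA only. Fewer cells of a type, less RNA per cell and a smaller pS6-bound part of that RNA therefore cannot be told apart.

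An olfactory sensory neuron expresses 1 odorant receptor gene out of a large family, and an odorant activates the neurons whose receptors bind it. Binding acts through the G protein Golf, adenylyl cyclase 3 and a cyclic nucleotide-gated channel. Activity leads to phosphorylation of S6 on the ribosomes, so pulling down pS6 enriches RNA of active neurons, including RNA of the receptor that each of them carries. Acetophenone is an aromatic ketone with a sweet smell, and TMT (trimethylthiazoline) is a sulfur-containing compound of fox secretions that elicits innate fear in mice.

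Libraries differed in depth and composition before any odor effect was considered. Uniquely aligned counts ranged from 2118099 to 4151769 in the acetophenone experiment and from 2869995 to 9526932 in the TMT experiment. Between 456 and 782 odorant receptor genes had at least 1 count in acetophenone controls, against 182 to 349 in TMT controls. The pair of acetophenone litter 3 stood apart from litters 4 and 5: Omp, which marks mature neurons, had 569 and 673 counts in its control and odor library, against 5591 to 7337 in the other acetophenone libraries, and Fos, an immediate early gene, had 2 and 2 counts. The pair of TMT litter 1 stood apart from the other TMT litters, with 349 and 644 receptors detected against 182 to 280. The letter codes in the library titles form 3 series, which hold acetophenone litter 3, then acetophenone litters 4 and 5 with TMT litter 1, then TMT litters 2 to 4.

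Olfr1395 was the receptor with the smallest p for a difference between the odors, and its pS6-bound RNA rose with TMT. The gene lies on chromosome 11 from 49142274 to 49150453 on the plus strand (GRCm38, the build also called mm10). In acetophenone litters 3, 4 and 5 its counts were 41, 38 and 50 in the controls and 27, 42 and 61 with the odor. In TMT litters 1 to 4 they were 32, 34, 17 and 17 in the controls and 203, 232, 279 and 256 with the odor. In CPM, every 1% TMT library stood above every control. With acetophenone the level was lower than the control in litter 3 and slightly higher in litters 4 and 5. Mean levels in CPM (unique counts scaled to library size) were 12.6 ± 3.52 (SD, n = 3) in acetophenone controls and 13.1 ± 3.86 (n = 3) with acetophenone, and 4.80 ± 2.48 (n = 4) in TMT controls and 42.1 ± 19.8 (n = 4) with TMT.

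The fitted log2 change of Olfr1395 was 3.17 with TMT (SE 0.32, 8.97-fold), with an adjusted p of 0.0290 from edgeR's quasi-likelihood test with Benjamini-Hochberg adjustment. With acetophenone it was 0.07 (SE 0.35), which is smaller than its error. The difference of differences was -3.09 (SE 0.48), with an unadjusted p of 7.32e-05 and an edgeR adjusted p of 0.386 over the 13720 genes tested, so it did not pass the threshold of 0.05. It passed in 2 of the 19 alternative fits. The adjusted p was 0.0243 when the other 9 libraries of the series entered the same fit, and 0.000236 with DESeq2 run without its filter on low means. That DESeq2 setting was chosen after seeing the data, and with the filter DESeq2 gave no adjusted p. The TMT call itself was lost without the replicate block (edgeR adjusted p = 0.0727) and on leaving out any of the 7 litters (edgeR adjusted p = 0.0530 to 0.0912), with log2 values between 2.95 and 3.37.

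Olfr376 is a second receptor on chromosome 11, from 73371246 to 73377836 on the plus strand. Its counts in acetophenone litters 3, 4 and 5 were 25, 24 and 20 in the controls and 34, 54 and 57 with the odor. In TMT litters 1 to 4 they were 6, 1, 2 and 0 in the controls and 58, 118, 107 and 239 with the odor. The control levels of the experiments did not overlap, and with odor the acetophenone libraries lay above their controls and the TMT libraries far above theirs. The log2 change was 5.60 with TMT (SE 0.73, edgeR adjusted p = 0.0565) and 1.16 with acetophenone (SE 0.66). The TMT value is a fold over control counts of 0 to 6, so its size is poorly fixed. The difference of differences was -4.44 (SE 0.97, unadjusted p = 0.00108, edgeR adjusted p = 0.999). DESeq2 without its filter on low means, a setting chosen after seeing the data, gave an adjusted p of 0.00913 for the same difference. Reads of Olfr376 that align to several places were not counted here, and with them shared out the difference was -4.13.

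Olfr923, on chromosome 9 from 38826545 to 38830300 on the plus strand, had the opposite pattern. In acetophenone litters 3, 4 and 5 its counts were 12, 23 and 4 in the controls and 357, 223 and 114 with the odor. In TMT litters 1 to 4 they were 2, 1, 0 and 0 in the controls and 12, 0, 0 and 0 with the odor. All 1% acetophenone libraries stood above all other libraries, and in TMT litters 2 to 4 the receptor was at or near 0 with and without odor. A count of 0 allowed up to 0.401, 0.328 and 0.315 CPM in the 1% TMT libraries of litters 2, 3 and 4, taking 3 counts as the limit. The mean with acetophenone was 78.9 ± 60.5 CPM (SD, n = 3) against 3.60 ± 2.19 in its controls.

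The log2 change of Olfr923 with acetophenone was 4.38 (SE 0.64, 20.8-fold), with an edgeR adjusted p of 0.499, and DESeq2 with the replicate block gave 4.42 with an adjusted p of 6.21e-06. The TMT value of 1.85 (SE 1.08) rests on the 12 counts in litter 1, and without that litter it was -1.59. The difference of differences was 2.53 (SE 1.68, unadjusted p = 0.171, edgeR adjusted p = 0.999). Without TMT litter 1 it was 5.93, with an edgeR adjusted p of 0.715. At the level of the TMT libraries the receptor was close to undetected, so the difference has a wide error.

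**Figure D1:**
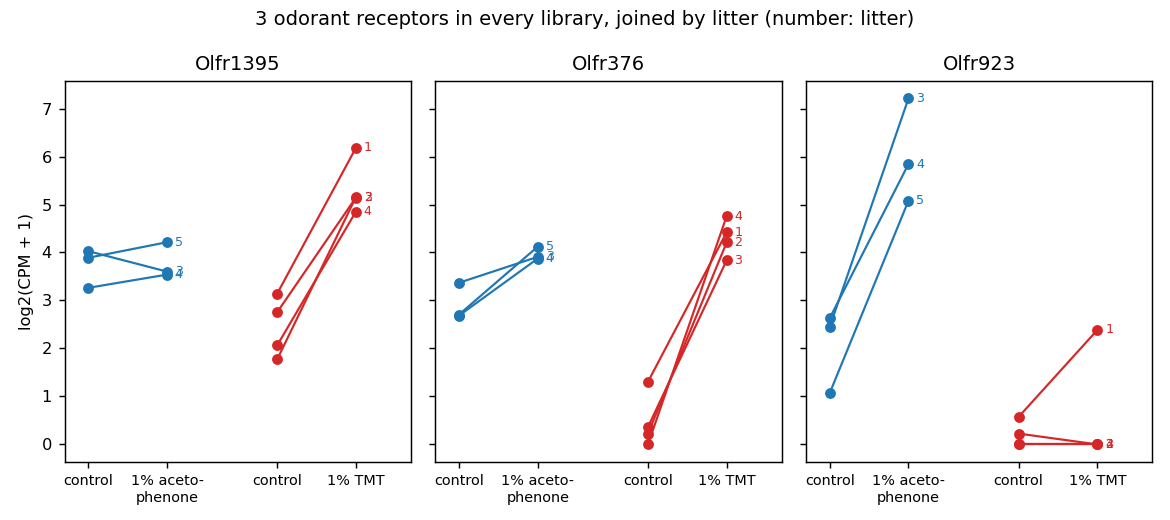
log2(CPM + 1) of Olfr1395, Olfr376 and Olfr923 in each of the 14 libraries, with lines joining the control and the 1% odor library of a litter (blue, acetophenone litters 3 to 5, red, TMT litters 1 to 4). Olfr1395 and Olfr376 are higher with TMT in 4 of 4 litters, and Olfr923 with acetophenone in 3 of 3.

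The same 3 receptors were compared by 1 value per litter, the log2 ratio of CPM in odor over control with a prior count of 2. For Olfr1395 the ratios were -0.44, 0.29 and 0.34 with acetophenone and 3.13, 2.50, 3.64 and 2.98 with TMT. For Olfr376 they were 0.57, 1.27 and 1.50 with acetophenone and 3.48, 4.97, 4.32 and 6.04 with TMT. For Olfr923 they were 4.92, 3.34 and 4.46 with acetophenone and 2.38, -0.51, 0.00 and 0.00 with TMT. In none of the 3 receptors did the litters of the odors overlap. The exact permutation test, 2-sided, gave p = 0.0571 for each, which is the smallest that 35 assignments of 3 against 4 litters allow. After adjustment over the 4 values tested in this way it was 0.0762. The 3 receptors were chosen with earlier results of these data known, so their separation here is not independent support. The adjustment does not cover their choice among all genes tested.

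Genes whose litter ratios do not overlap were not rare. Over all genes tested, 3.35% had all acetophenone ratios above all TMT ratios and 3.8% had the reverse. Among the 352 receptors tested these numbers were 10 and 8. Within the 1 code series that holds both odors, acetophenone litters 4 and 5 minus TMT litter 1 gave -2.81 for Olfr1395, -2.09 for Olfr376 and 1.53 for Olfr923, against -3.00, -3.59 and 3.77 over all litters. The other 2 code series hold 1 odor each and give no such value.

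The mean part of all receptor counts rose for Olfr1395 with TMT, for Olfr376 with both odors but mostly TMT, and for Olfr923 mainly with acetophenone. Olfr1395 made up 1.09% ± 0.802 (SD, n = 4) of receptor counts in TMT controls and 5.08% ± 2.26 with TMT, against 0.645% ± 0.495 (n = 3) and 0.465% ± 0.289 in the acetophenone pair of groups. Olfr376 made up 0.0653% ± 0.0499 in TMT controls and 2.63% ± 1.36 with TMT, against 0.311% ± 0.152 and 0.508% ± 0.255. Olfr923 went from 0.141% ± 0.0708 in acetophenone controls to 2.07% ± 0.579 with acetophenone, against 0.0270% ± 0.0330 and 0.0387% ± 0.0774. Together they held 2.71 to 3.55% of receptor counts with acetophenone and 3.52 to 11.1% with TMT, where litter 1 gave the lowest value.

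The share of all counts that fell on odorant receptors was higher with odor in most litters. In acetophenone litters 3, 4 and 5 it was 0.489, 0.249 and 0.134% in the controls and 0.728, 0.225 and 0.260% with the odor. In TMT litters 1 to 4 it was 0.121, 0.0232, 0.0362 and 0.0326% in the controls and 0.270, 0.0423, 0.0460 and 0.0716% with the odor. The 95% Wilson interval, which covers counting error only, reached from 1.57 to 5.09% of the share to either side in these libraries. The odor library had the larger share in 2 of 3 acetophenone litters and in 4 of 4 TMT litters. The mean log2 ratio was 0.46 ± 0.56 (SD, n = 3) for acetophenone and 0.87 ± 0.38 (n = 4) for TMT. The difference of -0.41 was within the spread of the litters (exact permutation test, 2-sided, p = 0.4).

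**Figure D2:**
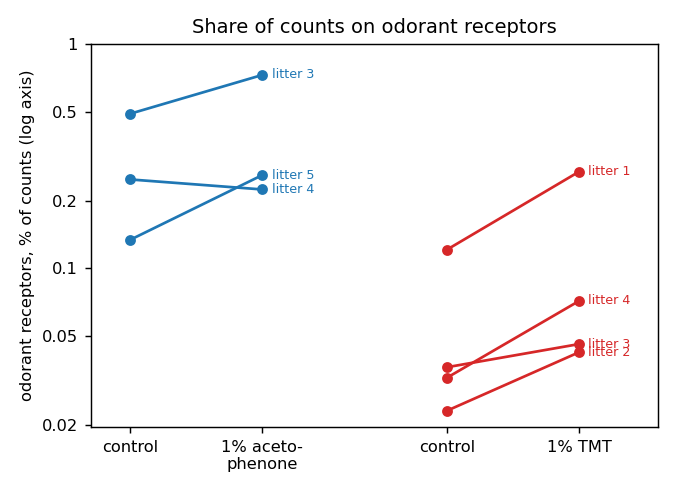
Percent of unique counts on odorant receptor genes in each library (log axis), joined by litter. Acetophenone litters 3 to 5 (blue) start at 0.134 to 0.489% and TMT litters 1 to 4 (red) at 0.0232 to 0.121%, and acetophenone litter 4 is the only pair in which the odor library is the lower one.

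Over all genes, no difference between the odors passed the adjusted threshold. edgeR called 0% of the 13720 genes tested in the difference of differences and 0% for acetophenone alone, where 113 genes with a positive and 173 with a negative change had an unadjusted p under 0.05, and where DESeq2 called 15. For TMT alone it called 2 genes (0.0146%), Olfr1395 and Malat1, a long noncoding RNA of the nucleus, where DESeq2 called 338. Without the replicate block edgeR called 0 genes for TMT. At an unadjusted p under 0.05 in the difference of differences, 160 genes (1.17%) were on the acetophenone side and 422 (3.08%) on the TMT side. DESeq2 with the replicate block called 15 genes, all on the TMT side and none of them a receptor. Its filter on low means gave Olfr1395, Olfr376 and Olfr923 no adjusted p in that fit. Without this filter, a setting chosen after seeing the data, DESeq2 called 11 genes, all on the TMT side. Of these, 2 were receptors, Olfr1395 and Olfr376. The 160 to 422 split moved with the scaling: it was 88 to 518 with total counts and 215 to 70 when libraries were scaled to their receptor counts. That last scaling moved the median gene by 0.34 (log2) from the TMM value.

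Of the 1122 odorant receptor genes in the files, 352 passed the filter on low counts. Of those, 2 had an unadjusted p under 0.05 on the acetophenone side and 13 on the TMT side, against the backgrounds of 1.17% and 3.08% of all genes just given. The receptors' shares of 0.568% and 3.69% are near those backgrounds. For each odor alone, 10 of 352 receptors (2.84%) were higher at that threshold with acetophenone, against 0.824% of all genes, and 53 of 352 (15.1%) with TMT, against 7.89%. A receptor could enter the test through libraries in which it is high, and 61 of the 352 had no count in any TMT control, so these counts describe the receptors that passed and not the family.

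On the TMT side, Olfr531, Olfr536, Olfr1346, Olfr220, Olfr695 and Olfr309 followed Olfr1395 and Olfr376, each with an edgeR adjusted p of 0.999 for the difference. Olfr531 had TMT control counts of 61, 9, 35 and 14 and odor counts of 71, 61, 135 and 84, against 53, 84 and 38 and then 34, 71 and 51 in the acetophenone pairs. Its log2 change was 1.67 (SE 0.39) with TMT and -0.03 (SE 0.43) with acetophenone, and its litter ratios did not overlap. Olfr1346 had 19, 4, 1 and 0 counts in TMT controls and 29, 40, 24 and 48 with TMT, and Olfr536 had 27, 2, 6 and 1 and then 15, 21, 37 and 63. In acetophenone litters 3, 4 and 5, Olfr1346 had 8, 29 and 18 counts in controls and 1, 29 and 8 with the odor, and Olfr536 had 86, 98 and 54 and then 52, 75 and 41. Scaled to depth, Olfr536 was lower with acetophenone in 3 of 3 litters and Olfr1346 in 2 of 3, with a log2 ratio of 0.15 in litter 4. In Olfr531, Olfr1346 and Olfr536 the TMT change was larger in each of litters 2 to 4 than in litter 1. Olfr220 did not share this, with log2 ratios of 2.55, 1.08, 0.39 and 4.02 in TMT litters 1 to 4.

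A different arrangement held for Olfr695, Olfr309 and Olfr745, whose counts with TMT lay mostly in litter 1. Olfr309 went from 2 to 102 counts in that litter and had 1, 0 and 0 and then 2, 2 and 0 counts in the other TMT litters. Olfr695 went from 1 to 41 in litter 1, against 0, 0 and 0 and then 0, 3 and 8. Olfr745 went from 0 to 61 in litter 1, against 1, 0 and 1 and then 0, 0 and 3. The same 3 receptors were higher with acetophenone in 3 of 3 litters: Olfr745 had 54, 25 and 2 counts in controls and 168, 60 and 45 with the odor, Olfr309 had 155, 102 and 6 and then 279, 161 and 58, and Olfr695 had 43, 19 and 4 and then 46, 30 and 30. The difference of differences was -3.37 (SE 1.22) for Olfr309, -3.94 (SE 1.27) for Olfr695 and -1.37 (SE 1.69) for Olfr745. Without TMT litter 1 it was 0.03 for Olfr309 and 2.46 for Olfr745. For Olfr695 it stayed negative on leaving out any 1 litter (-4.69 to -2.85).

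On the acetophenone side the receptors with the smallest p were Olfr569 and Olfr441, both with an edgeR adjusted p of 0.999. Their differences of 3.82 (SE 1.55) and 4.39 (SE 1.78) came from small TMT counts. Olfr569 had 5, 0, 11 and 10 counts in TMT controls and 0, 0, 3 and 1 with TMT. Olfr441 had 15, 0, 0 and 2 and then none. With acetophenone their counts were 3 to 13 throughout. Olfr222 was better covered, with 139, 264, 444 and 268 counts in TMT controls and 63, 131, 398 and 246 with TMT. Its log2 change was -0.77 (SE 0.23) with TMT and -0.06 (SE 0.27) with acetophenone, and the difference of 0.71 (SE 0.35) had an unadjusted p of 0.0720.

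Receptors covered in the controls of both experiments were described apart, since the filter could take in other receptors through odor libraries alone. A mean of at least 10 counts was reached by 226 tested receptors in acetophenone controls, by 67 in TMT controls and by 62 in both. Olfr257 and Olfr285, both among the 62, had identical counts in all 14 libraries, so the same values enter the counts and medians more than once. Over these 62 the median log2 change was -0.04 with acetophenone and 0.34 with TMT, and the median difference was -0.61, with 20 of 62 above 0. Of these, 21 reached the mean only through TMT control litter 1, with a mean under 10 in the other 3 TMT controls. Over the remaining 41, a split made after seeing the data, the medians were -0.06 with acetophenone, 0.02 with TMT and -0.45 for the difference, with 16 of 41 above 0. Over all genes the median difference was -0.04. Olfr1395 had the highest TMT value of the 62, and Olfr669 followed with 2.62 (SE 0.74) against 0.74 with acetophenone, over TMT control counts of 96, 1, 1 and 5. Olfr376 and Olfr923 are not among them, since their mean in TMT controls was below 10 counts.

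**Figure D3:**
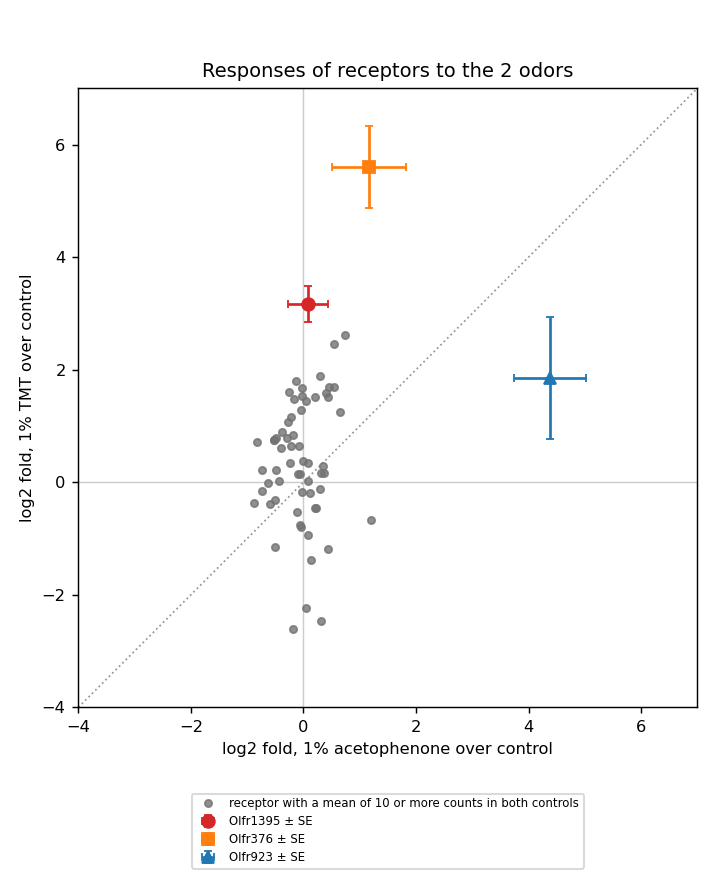
Fitted log2 change with 1% acetophenone (x axis) and 1% TMT (y axis) for the 62 receptors with a mean of at least 10 counts in both control groups, with Olfr1395, Olfr376 and Olfr923 drawn with their SE. Most points lie in a narrow column around 0 on the acetophenone axis, Olfr1395 at 3.17 and Olfr376 at 5.60 lie high on the TMT axis, and Olfr923 lies alone at 4.38 on the acetophenone axis.

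Some receptors had an unadjusted p under 0.05 in the same direction for both odors. They were Olfr1104, Olfr136, Olfr309 and Olfr491, none with an edgeR adjusted p under 0.05 for either odor. The share of all genes with this pattern was not counted, so no excess among receptors is stated. DESeq2 with the replicate block called Olfr136 and Olfr309 with TMT (adjusted p = 0.0245 and 0.0249). For Olfr309 the TMT value rests on litter 1, with 2 counts in the control and 102 with TMT. Olfr491 had log2 values of 2.14 (SE 0.44) with acetophenone and 2.18 (SE 0.67) with TMT, and the difference was -0.04. Olfr136 had 2.65 (SE 0.77) and 5.25 (SE 1.22). Across the 352 tested receptors the 2 odors' log2 changes had a Spearman correlation of 0.44, and across all 13720 genes of 0.21. These are descriptions across genes, which are not independent, and libraries with few receptor counts enter both.

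Olfr160 and Olfr151, receptors already known for acetophenone, were barely detected by uniquely aligned reads. Their reads that align to several places were not counted here. Olfr160, known as M72 and reported to respond to acetophenone, had 1, 2 and 2 counts in acetophenone controls and 7, 4 and 6 with the odor, and at most 4 in any TMT library. It was too low to be tested. Olfr151, known as M71 and likewise known for an acetophenone response, had no count in any of the 14 libraries. Olfr30 had log2 changes of 0.65 (SE 0.43) with acetophenone and 1.24 (SE 0.38) with TMT, and the difference of -0.59 (SE 0.57) was about the size of its error.

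Outside the receptor family, the genes with the smallest p on the TMT side were Sptbn1, Sptan1, Cenpf, Myh9, Malat1 and Fn1. All but Malat1 had lower values under acetophenone and slightly higher ones under TMT. Sptbn1 and Sptan1, which encode the beta and alpha subunits of nonerythroid spectrin, had differences of -1.86 (SE 0.29) and -1.62 (SE 0.26), both with an edgeR adjusted p of 0.386. Sptbn1 had 4885, 1490 and 1687 counts in acetophenone controls and 1283, 807 and 535 with the odor. In TMT litters 1 to 4 it had 234, 78, 93 and 44 in controls and 259, 133, 157 and 80 with the odor. The control groups lay further apart than odor and control did, also for Sptan1, at 1799 ± 1370 CPM (SD, n = 3) in acetophenone controls and 153 ± 148 CPM (n = 4) in TMT controls.

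Cenpf, a kinetochore protein of dividing cells, Myh9, the heavy chain of nonmuscle myosin IIA, and Fn1, fibronectin, had differences of -1.76 (SE 0.29), -2.30 (SE 0.39) and -1.30 (SE 0.27). Sptbn1, Sptan1, Cenpf and Myh9 were lower in 3 of 3 acetophenone litters and higher in 4 of 4 TMT litters. Acetophenone litter 4 had the smallest change of these genes, at -0.72 for Sptbn1 and -0.20 for Sptan1, and without it edgeR called Sptan1, Myh9 and Sptbn1 in the difference (adjusted p = 0.0391, 0.0391 and 0.0477). DESeq2 with the replicate block called all 5 of these genes. Malat1 rose with TMT by 2.04 (SE 0.22, edgeR adjusted p = 0.0290), with counts of 127, 12, 27 and 78 in controls and 252, 101, 162 and 458 with TMT. That call was lost without the replicate block (edgeR adjusted p = 0.965), after the GC and length correction (1.89, edgeR adjusted p = 0.0740) and on leaving out any litter but TMT litter 1 (edgeR adjusted p = 0.0551 to 0.150). With acetophenone it stood at 0.19 (SE 0.23), and the difference was -1.86 (SE 0.32, edgeR adjusted p = 0.451).

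On the acetophenone side, the genes with the smallest p were Hspb6, Cxcl17, Blvrb, Lypd2, Hs1bp3 and Dgat2, each with an edgeR adjusted p of 0.999. Hspb6, a small heat shock protein of muscle, had a difference of 1.39 (SE 0.31), with litter ratios of 1.06, 1.03 and 0.74 with acetophenone and -0.37, -0.22, -0.23 and -0.90 with TMT. Blvrb, biliverdin reductase B, had a difference of 0.62 (SE 0.16), and its ratios of 0.18, 0.23 and 0.13 against -0.49, -0.49, -0.34 and -0.44 spread little. Hs1bp3 had the largest difference of the 6, 3.19 (SE 0.86), at counts of 2 to 47. Dgat2, an enzyme of triglyceride synthesis, had 1.27 (SE 0.34).

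**Figure D4:**
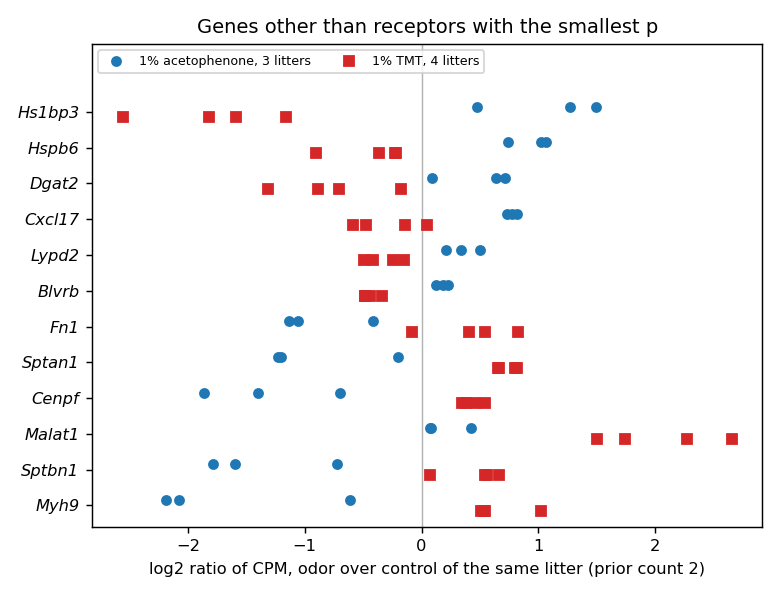
log2 ratio of CPM in odor over control of the same litter for the 6 genes with the smallest p in each direction, receptors left out (blue circles, 3 acetophenone litters, red squares, 4 TMT litters). The upper 6 genes lie to the right for acetophenone and mostly to the left for TMT, and the lower 6 have every acetophenone litter to the left of every TMT litter.

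Transcript length and base composition moved with these differences. By the length of the longest annotated transcript, the median difference went from 0.17 in genes under 1 kb to -0.30 in genes over 8 kb. Of the 696 genes over 8 kb, 50 (7.18%) were on the TMT side and 5 (0.718%) on the acetophenone side at an unadjusted p under 0.05. Of the 664 genes under 1 kb these were 3 (0.452%) and 16 (2.41%), against 3.08% and 1.17% of all genes. Sptbn1, Sptan1, Cenpf, Myh9, Malat1 and Fn1 have transcripts of 9107, 8018, 11130, 7433, 6983 and 8315 bases. The Spearman correlation of the difference with length was -0.16 and with GC content 0.19 over 12946 genes. For each odor alone, the correlation with GC content was -0.30 for acetophenone and -0.39 for TMT. The median GC content was 39.8% in receptors and 49.9% over these genes. Whether base composition had a part in the receptor changes or in the correlation between the odors was not tested. After a correction for both in the same fit with the block, the differences were -1.76 for Sptbn1, -1.51 for Sptan1 and -3.03 for Olfr1395, and edgeR called 0 genes. Whether RNA quality had a part in the differences was not tested.

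**Figure D5:**
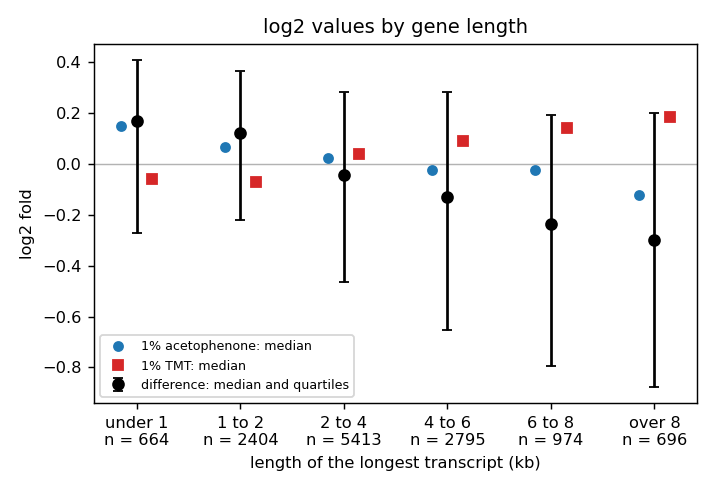
Median log2 difference of differences with its quartiles (black) in 6 bins of transcript length, beside the median log2 change of each odor (blue, 1% acetophenone, red, 1% TMT), with n the number of genes. The black medians step down from 0.17 in the shortest bin to -0.30 in the longest, and the quartiles overlap between all bins.

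The genes of olfactory signal transduction were mostly on the TMT side. Of 14 tested, 12 had a negative difference and 5 an unadjusted p under 0.05, all on that side, and edgeR called none. Over all genes, 7255 of 13720 were negative and 3.08% had such a p on that side. The median difference was -0.45, against -0.04 over all genes, with medians of -0.09 for acetophenone and 0.43 for TMT. Slc12a2, the NKCC1 transporter that loads olfactory neurons with chloride, stood at -2.02 (SE 0.46), with 2.29 (SE 0.32) under TMT and 0.27 (SE 0.33) under acetophenone. Cnga2, the main subunit of the cyclic nucleotide-gated channel, and Pde1c, a phosphodiesterase of the cilia, were at -1.30 (SE 0.58) and -1.53 (SE 0.69). Gnal, which encodes Golf alpha, and Adcy3, the adenylyl cyclase, were at -0.59 (SE 0.48) and -0.18 (SE 0.26). Of 10 mature neuron markers, which share several of these genes, 9 were negative and 3 had an unadjusted p under 0.05. Omp itself was at -0.21 (SE 0.25), and its sign turned to 0.13 when libraries were scaled to receptor counts.

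No gene that reports neuronal activity was called for a difference between the odors. The 8 activity-dependent genes of olfactory neurons that were tested all had negative differences, with a median of -0.30 and none at an unadjusted p under 0.05. Negative differences made up 52.9% of all genes tested, and members of a list may vary together. S100a5, a calcium-binding protein that follows odor-driven activity, had 2966, 7353 and 750 counts in acetophenone controls and 4142, 6101 and 4242 with the odor. In the TMT litters it had 295, 99, 185 and 111 and then 3239, 134, 149 and 701. Its difference of -0.39 (SE 1.03) was smaller than its error, and without TMT litter 1 it was 0.42. Lrrc3b was at -0.55 (SE 0.40) and Pcdh10, a protocadherin, at -0.07 (SE 0.47), and Pcdh10 turned positive with receptor scaling (0.30). Of 16 immediate early genes tested, 8 were positive and 8 negative, none at an unadjusted p under 0.05, with a median of 0.13. Fos was at 0.61 (SE 0.45), Egr1 at 0.31 (SE 0.54) and Nr4a1 at -0.40 (SE 0.45).

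edgeR called none of the markers of other cell types for a difference between the odors, but several lists lay on 1 side. Of the 13720 genes tested, 7255 had a negative difference and 6465 a positive one. Members of a list may vary together, so their signs are not independent counts. All 8 fibroblast and bone markers had a negative difference, with a median of -0.65 and 4 at an unadjusted p under 0.05 (3.08% of all genes on that side): Col1a1 at -0.73 (SE 0.20), Col1a2 at -0.86 (SE 0.18), Col3a1 at -0.66 (SE 0.29) and Dcn, decorin, at -1.63 (SE 0.43). DESeq2 with the replicate block called Col1a2 and Dcn (adjusted p = 0.0131 and 0.0429). Their summed level was 13997 to 24498 CPM in acetophenone controls, 7982 to 17808 with acetophenone, 6940 to 11347 in TMT controls and 7951 to 11322 with TMT. All 9 red cell markers had a negative difference, with a median of -0.70 and none at an unadjusted p under 0.05. Their sum was 2643 to 3569 CPM in acetophenone controls and 1199 to 6405 with acetophenone. In TMT controls it was 7330 to 14126 CPM, and 4900 to 35163 with TMT. All 7 skeletal muscle markers tested had a positive difference, with a median of 1.62 and none at an unadjusted p under 0.05. The muscle sum was 36.6 to 347 CPM with acetophenone and 26.1 to 94.7 CPM in the other groups. Of 13 Bowman gland and secretory markers, 9 were positive, and Bpifa1 (0.73, SE 0.26) and Bpifb1 (0.96, SE 0.36), secreted proteins of airway glands, had an unadjusted p under 0.05, as did Muc5b on the other side (-0.45, SE 0.17). The 12 sustentacular cell markers did not lie on 1 side, with 7 negative, 5 positive and a median of -0.13. Of them, 2 had an unadjusted p under 0.05, Aldh1a1 at -1.31 (SE 0.39) and Fmo2 at -2.02 (SE 0.71). The part of these cell types in the differences of Sptbn1, Myh9, Fn1 and Hspb6 was not tested.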

How the data were processed

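pS6-bound RNA of mouse olfactory epithelium was sequenced in 14 libraries (3 litter pairs for 1% acetophenone, 4 for 1% TMT). Bowtie, bedtools and the mm10 build were used by the authors, per the submitters' processing notes. Their versions are not given in these sources. The deposited tables list 23481 genes and 20 value columns without a header. The first deposited column holds whole-number counts, read from its values as uniquely aligned reads. The last deposited column holds estimated counts with reads of several alignments shared out, which were rounded and used only as an alternative, and 18 columns were not used. Genes were matched by symbol to GENCODE M21 (GRCm38) for position, length and GC content.

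edgeR 4.0.16 (R 4.3.3) was run with TMM, filterByExpr (minimum count 10), litter as a replicate block and the 2-sided quasi-likelihood F test, 14 libraries and 5 residual degrees of freedom, with p-values adjusted by Benjamini-Hochberg across the 13720 tested genes at a threshold of 0.05. The SE is the log2 value divided by the square root of F. DESeq2 1.42.0 served as an alternative, and the fitting script was tested on simulated data. Litter pairs come from the labels: deviations from group means correlated within litters at 0.64 to 0.85 (acetophenone) and 0.02 to 0.31 (TMT), where in litters 3 and 4 another litter correlated more. The labels do not say that a litter's libraries come from separate animals, so p-values measure the spread between these libraries, which may be technical. Zero-count limits take 3 counts and cover counting error only.

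The members and gene lists were chosen with earlier results of these data known. Genes named are the 3 receptors Olfr1395, Olfr376 and Olfr923, genes called, the 8 receptors and 6 other genes with the smallest p in each direction, a fixed list of activity genes, neuron markers and receptors, and members of the gene lists. Olfr669, Olfr257, Olfr285, Olfr1104, Olfr136 and Olfr491 and the list members other than those were singled out after their values were seen.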

Additional observations from a re-analysis of the deposited data

Results flagged for a closer look

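Values in which 1 of the 4 TMT litters lay far from the others were looked for in 48 groups of 4 (Dixon's test at the 95% level), and 8 were found. The 48 include Olfr160 and Olfr151, which had no litter ratio and could not be flagged. Chance gives about 1 in 20. TMT litter 1 accounted for 6 of the 8. Its receptor share of counts was 0.121% in the control, against 0.0232 to 0.0362% in the other litters, and 0.270% with TMT, against 0.0423 to 0.0716%. Its TMT library had 644 receptors detected, against 243 to 280. The litter log2 ratio was 5.35 for Olfr309 (0.00 to 0.69 in the others), 5.77 for Olfr745 (-0.51 to 0.31) and -0.50 for Olfr744 (0.00 in the 3 others, where it had no count).

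The litter ratio of Myh9 was 1.03 in TMT litter 3, against 0.51 to 0.54 in the others. Nfil3, a transcription factor listed among activity-dependent genes, had a ratio of -0.034 in TMT litter 4, against 0.40 to 0.47.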

How the results depend on the processing

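In the fit without the replicate block, edgeR called 0 genes for TMT, and Olfr1395 with TMT stood at 3.13, no longer called. For TMT alone (2 genes called), total counts gave 6, receptor scaling 3806 (3786 of them lower), no filter on low counts 33, all 23 libraries 4, the GC and length correction with the block 1, and leaving out 1 litter 0 to 2. DESeq2 with the block called 338 genes for TMT, 15 for acetophenone and 15 for the difference, and without independent filtering (chosen after seeing the data) 330, 11 and 11. The difference had 1 call with all 23 libraries and 0 to 3 on leaving out 1 litter, with the 3 without acetophenone litter 4.

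The difference for Olfr1395 was called at -3.11 with all libraries and at -3.07 by DESeq2 without independent filtering, which also called Olfr376 (-4.53). Olfr1395 with TMT lost its call without any 1 litter, at 2.95 to 3.37. With acetophenone Olfr1395 turned to -0.45 under receptor scaling and ranged from -0.12 to 0.33 without 1 litter. Olfr376 with TMT was called at 5.60 (total counts), 4.87 (receptor scaling), 5.60 (no filter), 5.54 (all libraries) and 5.70 (DESeq2, both ways). Olfr923 with acetophenone was called at 4.42 by DESeq2 both ways, and with TMT it ranged from -1.59 to 2.75 without 1 litter.

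Leaving out 1 litter turned the sign of some differences: Olfr309 ranged from -4.34 to 0.025 (positive without TMT litter 1), Egr1 from -0.21 (without acetophenone litter 4) to 0.67, Gap43 from -0.026 (without acetophenone litter 3) to 0.40, S100a5 from -1.17 to 0.42 (positive without acetophenone litter 4 or TMT litter 1) and Pcdh10 from -0.47 to 0.41 (positive without acetophenone litter 4 or TMT litter 3). Olfr745 ranged from -2.98 to 2.46 (positive without acetophenone litter 3 or TMT litter 1). Receptor scaling turned Pcdh10 (0.30), Nfil3 (0.19), Omp (0.13) and Olfr745 (0.18), and DESeq2 with the block turned Olfr745, filtered or not (1.45). The cause was not tested. The direction of the differences for Olfr1395 (-3.30 to -2.75), Olfr376 (-5.47 to -3.84) and Olfr923 (1.62 to 5.93) held in all 19 alternative fits. Few receptor counts in TMT controls limit every fold over them.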
